A study of Homo sapiens with 6 samples.

Results

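The cytoplasmic ribosomal protein genes are described here across 6 RNA-seq libraries of MRC5 cells, an immortalized line of human embryonic lung fibroblasts. The genes were chosen by gene symbol: RPL or RPS with a number and nothing, A or X after it, plus RPLP0, RPLP1, RPLP2 and RPSA, without paralogues, pseudogenes or readthrough genes. This gave 77 genes of 25368 different symbols in each table, 46 for the large and 31 for the small subunit. The family was taken up with its changes in these libraries already known, so its levels and differences are a description, and no test was made. One table holds MRC5 infected with adenovirus carrying an empty vector (control), wild-type JUN (JUN WT) or a mutant of JUN whose JNK phosphorylation serines are alanine (JUN AA). The other holds untreated MRC5, MRC5 grown for 7 days in medium conditioned by MDA-MB-231 breast cancer cells and given vehicle (iCAFs, induced cancer-associated fibroblasts), and iCAFs given a JNK inhibitor at 1 µM for 48 h (iCAFs+JNKi). The study asked whether phosphorylated JUN drives and maintains an activated fibroblast state. With 1 library per condition, no difference has a replicate check.

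A ribosome joins a small subunit, which reads the mRNA, to a large subunit, which forms peptide bonds, and its proteins are made in balanced amounts. Ribosomal protein mRNAs are short, abundant and long-lived, and most begin with a C followed by a run of pyrimidines, the 5′ terminal oligopyrimidine (TOP) motif, through which mTOR signalling sets their translation. Dividing fibroblasts spend much of their transcription on ribosomes, and free RPL5 and RPL11 bind MDM2 and so link ribosome assembly to p53.

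RefSeq promoter windows on GRCh38.p14 were matched for 62 of the 77 genes. At the annotated start, 46 of the 62 (74.2%) had a C followed by at least 4 more pyrimidines, against 4.98% of 27243 other genes in the same table. The windows of the genes that the results turn on follow with 10 bases before and 20 bases from the start, 5′ to 3′ on the strand of the gene, with the pyrimidine tract in capitals. RPL39 had the longest tract. By difference from the control, not by level, RPL11 and RPS6 stood among the highest in JUN WT, RPS3A and RPL34 led in JUN AA, and RPS19 was the lowest there. RPL13A and RPL21 behaved apart from the rest.
RPL39 (chrX:119791611-119791640, minus strand): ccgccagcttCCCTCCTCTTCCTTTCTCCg
RPL11 (chr1:23691796-23691825, plus strand): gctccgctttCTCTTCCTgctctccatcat
RPS6 (chr9:19380217-19380246, minus strand): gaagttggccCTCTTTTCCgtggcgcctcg
RPS3A (chr4:151099618-151099647, plus strand): cccacttccgCCCTTTTggctctctgacca
RPL34 (chr4:108620566-108620595, plus strand): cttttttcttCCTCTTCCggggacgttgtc
RPS19 (chr19:41860245-41860274, plus strand): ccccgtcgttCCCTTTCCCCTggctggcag
RPL13A (chr19:49487598-49487627, plus strand): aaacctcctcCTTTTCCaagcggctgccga
RPL21 (chr13:27251548-27251577, plus strand): ccgcctctttCCTTTCggccggaaccgcca
RPS4X and RPL9, which were among the genes furthest above the control with JUN WT and with JUN AA respectively, have no such tract at the annotated start. Only a tract from the first base of the annotated start was counted, so the pyrimidines further on in the RPL9 window were left out.
RPS4X (chrX:72277229-72277258, minus strand): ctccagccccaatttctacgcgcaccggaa
RPL9 (chr4:39458903-39458932, minus strand): taatgacgacagacgttctttctttgctgc
The tract ran for 19 bases in RPL39, 8 in RPL11, 11 in RPS19 and 6 in RPL21. The AP-1 heptamer TGACTCA or its complement TGAGTCA, the letters that JUN dimers bind, occurred in the 300-base window of 1 of the 62 genes, RPL24, and in 6.06% of the other genes.

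Levels are FPKM, fragment counts divided by exon length and by library size, so genes can be compared per length within a library. The 2 tables were deposited separately and are not compared with each other. The deposited FPKM summed to 494604, 498515 and 613185 in control, JUN WT and JUN AA, and to 399535, 393524 and 359947 in MRC5, iCAFs and iCAFs+JNKi. JUN itself stood at 25.5 FPKM in control cells, 4543 with JUN WT and 291 with JUN AA, so the mRNA was higher with both constructs, to unlike levels. Fibroblast markers were present at 1 FPKM or more in every library, 10 of 10 genes. Of 6 epithelial markers 2 or 3 reached 1 FPKM in each library, KRT18 highest, of 4 leukocyte markers only CD68 did, and no endothelial marker did.

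The ribosomal protein genes held 18.4% of the summed FPKM in control cells, 18.1% with JUN WT and 27.7% with JUN AA. Their median level was 856 FPKM in control cells, 915 with JUN WT and 1881 with JUN AA. In the JNKi table they held 12.6% in MRC5, 12.1% in iCAFs and 10.8% under JNKi, with median levels of 635, 600 and 479 FPKM. JUN AA was therefore the library with the highest share in its table and iCAFs+JNKi the one with the lowest. The summed fibroblast markers were lowest in JUN AA, at 4918 FPKM beside 6804 in the control, and highest in iCAFs+JNKi, at 11974 FPKM beside 7933 in iCAFs, and their part in these shares was not tested. All 77 genes averaged 1 FPKM or more over the 3 libraries of each table, the limit for being tested, and 39 to 51 of the 100 highest rows of a library were theirs.

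RPS2, a small subunit protein near the mRNA entry, had the highest mean in the JUN overexpression table, at 4785 FPKM in control cells, 3707 with JUN WT and 9232 with JUN AA. RPL35 followed with 3269, 2597 and 9019 FPKM, and RPL41, whose coding sequence of 75 bases is the shortest of the family, with 3112, 2836 and 7903 FPKM. These 3 genes had the same order of libraries, with JUN AA highest and JUN WT lowest. At the other end RPL22, an RNA-binding protein of the large subunit, stood at 76.6, 112 and 215 FPKM, RPL13A at 188, 170 and 163 FPKM and RPL27A at 192, 226 and 238 FPKM. The RPL13A row cannot be read alone, as described below. With the row of its pseudogene RPL13AP5 it summed to 4214, 4250 and 4350 FPKM.

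In the JNKi table RPLP1, one of the acidic P proteins of the large subunit stalk, led with 1641 FPKM in MRC5, 1550 in iCAFs and 1207 under JNKi. RPS2 followed with 1450, 1244 and 999 FPKM and RPL37A with 1315, 1239 and 984 FPKM. Each of the 3 was highest in MRC5 and lowest in iCAFs+JNKi. The lowest were RPL21 at 9.43, 19.6 and 1.93 FPKM, RPL27A at 139, 133 and 127 FPKM, and RPS23 at 145, 149 and 107 FPKM. The RPL21 row cannot be read alone either, and with the row of its pseudogene RPL21P28 it summed to 760, 751 and 676 FPKM. The large to small subunit ratio of the summed FPKM lay between 1.21 and 1.25 in the JUN overexpression table and between 1.43 and 1.5 in the JNKi table. The large subunit sums leave out RPL13AP5 and RPL21P28, at 4026 and 775 FPKM in control and 2276 and 751 FPKM in MRC5. The ratios are thus lower than they would be with these rows added. Across the 77 genes, the levels in control and MRC5, which come from different tables, had a Spearman's rho of 0.67, a description across genes that share annotation and gene length.

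**Figure D1:**
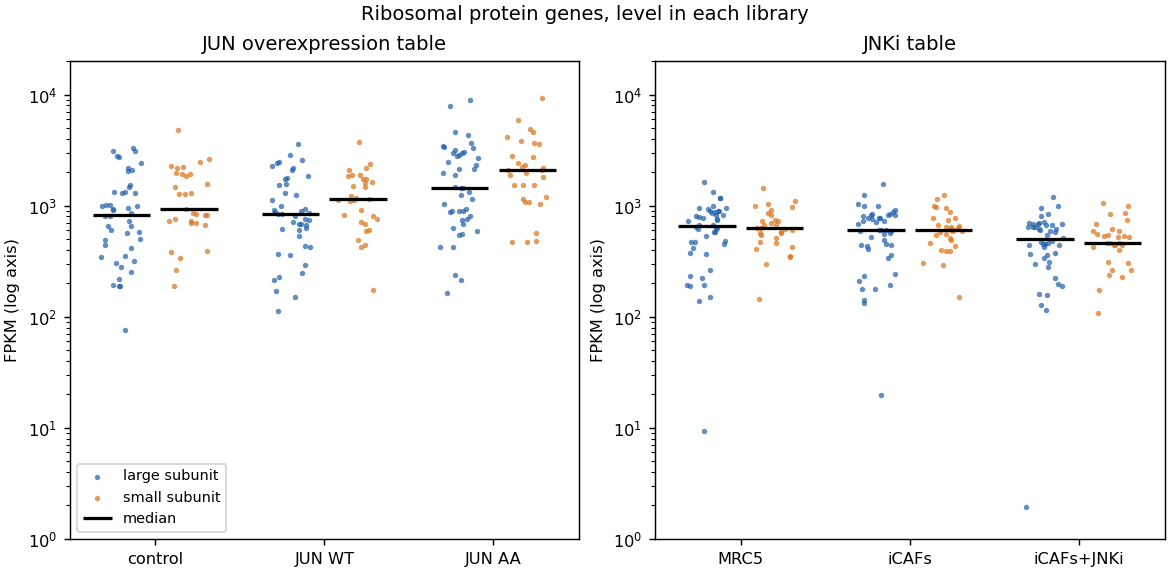
Level of each of the 77 ribosomal protein genes (points, FPKM on a log axis) in the 3 libraries of the JUN overexpression table and the 3 of the JNKi table, by subunit, with the median of each subunit as a bar. Both subunits sit highest in JUN AA within the first table and lowest in iCAFs+JNKi within the second, and the single low point in the second table is RPL21.

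JUN AA differed most from the control. The median log2(FPKM + 1) difference of the 77 genes was 0.76, a fold of 1.69, while that of all 10311 genes tested was -0.015. Of the 77 genes, 73 were higher and 4 lower, where 48.6% of all genes tested were higher. At least 1.5-fold higher were 49 of 77, against 13.6% of all genes, and at least 1.5-fold lower were 0, against 12%. At least 2-fold higher were 33 of 77, against 5.29%. The summed FPKM of the library exceeded that of the control by 118581, and the ribosomal protein genes made up 66.7% of this excess. With the libraries rescaled to the same sum, the median of all genes moved to -0.29 and that of the ribosomal protein genes to 0.45, with 60 higher and 17 lower. FPKM are relative to the library, so more RNA of these genes and less RNA of others cannot be told apart. Other genes that averaged 100 FPKM or more, 734 in number, had a median difference of 0.16, and 718 other genes with a canonical transcript of at most 1000 bases one of 0.35.

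RPS3A, a small subunit protein at the mRNA exit, led with 853 FPKM in control cells, 801 with JUN WT and 3672 with JUN AA, a log2 difference of 2.1 between JUN AA and control. RPL34 stood at 189, 246 and 746 FPKM (1.98), and RPL9 at 730, 608 and 2800 FPKM (1.94). In all 3 JUN WT lay much nearer to the control than JUN AA did. The opposite end was held by RPS19, the gene mutated most often in Diamond-Blackfan anaemia, with 2239, 2391 and 1886 FPKM (-0.25). RPL13A at 188, 170 and 163 FPKM (-0.20) and RPLP2 at 2093, 1748 and 1954 FPKM (-0.10) were the next lowest. RPL3, which reaches into the peptidyl transferase centre, was the fourth gene below the control, at 925, 855 and 895 FPKM (-0.047).

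Genes listed by name in the design were spread over this range. RPL5, with RPL11 part of the 5S ribonucleoprotein, stood at 250 FPKM in control cells, 430 with JUN WT and 678 with JUN AA, and RPL11 at 320, 941 and 923 FPKM. RPS6, the substrate of the S6 kinases, stood at 393, 915 and 1028 FPKM. For these 3 genes the differences between JUN AA and control were 1.43, 1.53 and 1.39, and JUN WT also lay above the control. RPS27A, made as a fusion with ubiquitin, stood at 765, 605 and 2247 FPKM (1.55), with only JUN AA above the control. The stalk protein RPLP0, on which RPLP1 and RPLP2 sit, stood at 3106, 2274 and 4636 FPKM (0.58), and RPLP1 at 2766, 3601 and 4297 FPKM (0.64), while RPLP2 was below the control in both. RPSA, also known as a laminin receptor, stood at 1845, 1724 and 2413 FPKM (0.39). RPS3, a small subunit protein that also acts in DNA repair, stood at 385, 443 and 468 FPKM (0.28), and RPL36A at 307, 215 and 799 FPKM (1.38).

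In JUN WT the family as a whole lay near the control. Its median difference was -0.037, against 0.15 for all genes. Over the 32 genes that share no exon bases with another gene it was 0.16, so its sign did not hold. The median of all genes was not recomputed over such genes. Rescaled to the same sum, the family's median was -0.048, against 0.16 for all genes. Of the 77 genes, 35 were higher and 42 lower, where 60.9% of all genes were higher. At least 1.5-fold higher were 9 of 77, against 22.1% of all genes, and at least 2-fold higher 4, against 6.92%. At least 1.5-fold lower were 2, against 10%. This count became 8 when centred on the median gene and 15 with the trend of GC content removed. The share of all genes was not recounted under either. The 2 genes lower as deposited were RPS29 at 665 FPKM in the control and 428 in JUN WT (-0.63) and RPL7 at 806 and 536 FPKM (-0.59). RPL21 was next, at 219 and 149 FPKM (-0.55). The other genes with at least 100 FPKM had a median of -0.10, and other transcripts of at most 1000 bases one of 0.089.

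RPL11, RPL14, RPS6 and RPS4X were the 4 genes at least 2-fold above the control in JUN WT, and RPL5 was among the 9 at least 1.5-fold above it. RPL11 was 1.55 higher on the log2 scale, from the levels given above, and RPL14 stood at 280 FPKM in control cells, 678 with JUN WT and 547 with JUN AA (1.27 in JUN WT). RPS4X, the small subunit protein encoded on the X chromosome, stood at 264, 594 and 479 FPKM (1.17). All 9 were above the control in JUN AA too, as were 73 of the 77 genes and 48.6% of all genes tested. That comparison uses the same control library. All 9 had a coding sequence longer than 450 bases: 9 of 41 such genes were at least 1.5-fold higher, near the 22.1% of all genes, and 0 of 36 with a shorter one. In the JNKi table RPL11 stood at 892, 847 and 664 FPKM and RPS6 at 979, 951 and 853 FPKM in MRC5, iCAFs and iCAFs+JNKi. In iCAFs+JNKi against iCAFs, RPL14 (-0.14), RPS4X (-0.15) and RPS6 (-0.16) lay above the family's upper quartile of -0.19. The rest of the 9 lay between its quartiles of -0.38 and -0.19.

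Set directly against JUN AA, JUN WT had a median difference of -0.65, against 0.18 for all genes. Lower were 63 of 77, against 37.5% of all genes, at least 1.5-fold lower 40, against 12.4%, and at least 2-fold lower 32, against 5.61%. No gene was at least 1.5-fold higher as deposited, and 4 were after rescaling to the same sum, against 21.8% of all genes as deposited. RPL7, at 536 FPKM in JUN WT and 3055 in JUN AA, was the lowest (-2.51), followed by RPL9 and RPS3A (-2.20 each). RPL4, a protein of the exit tunnel, was the highest at 849 and 629 FPKM (0.43), followed by RPS19 (0.34) and RPS4X (0.31). After rescaling to the same sum the median became -0.36, with 50 genes lower and 27 higher, and that of all genes 0.47. JUN AA was the highest library for 61 genes, JUN WT for 13 and the control for 3. The highest library was not counted over all genes, so these counts have no background.

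**Figure D2:**
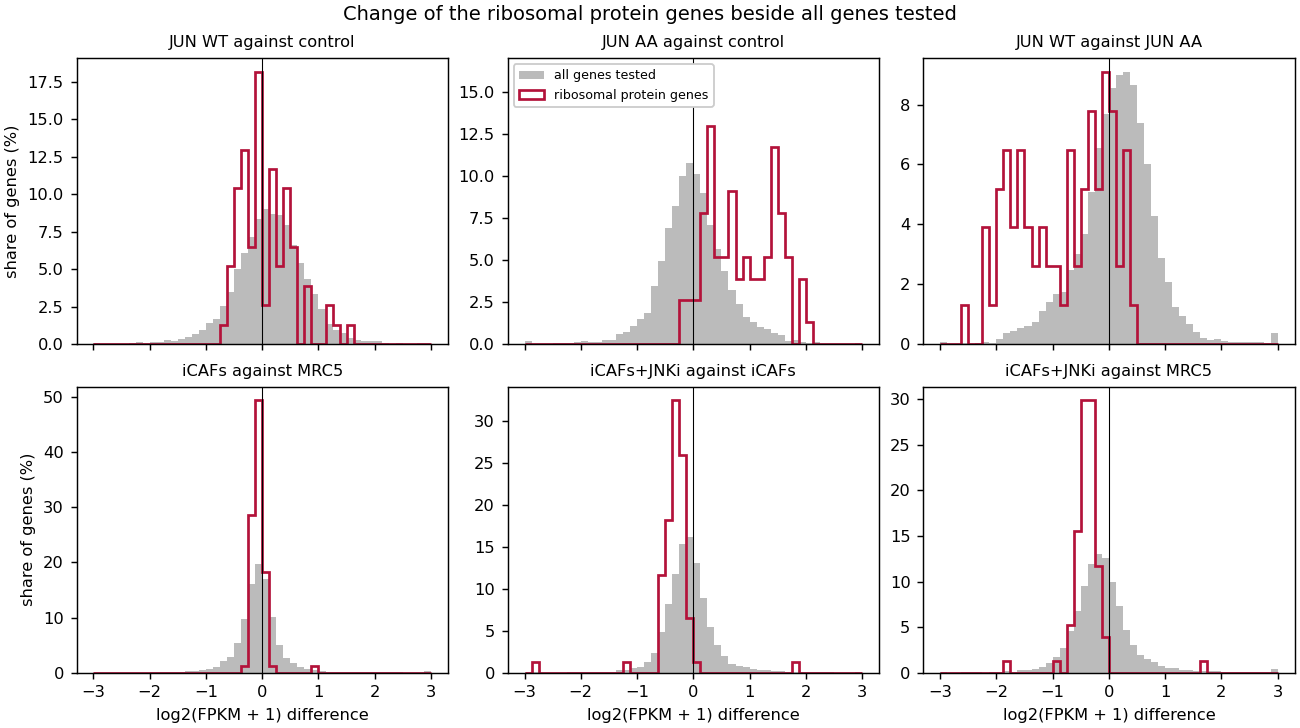
Distribution of the log2(FPKM + 1) difference in the 6 comparisons (share of genes in bins of the difference, with values past 3 placed in the last bin), for all genes tested in grey and the 77 ribosomal protein genes as a red line. In JUN AA against control the red line lies almost wholly right of 0 and reaches 2.1, in iCAFs+JNKi against iCAFs it is narrow and left of 0, with RPL13A and RPL21 far out on either side.

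Within JUN AA, the size of the difference varied with the base composition of the coding sequence. The GC content of the coding sequences ran from 42.5% to 63.0%, with a median of 51.6%. The 39 genes at or below this median had a median difference from the control of 1.40 (quartiles 1.01 and 1.56), the 38 above it one of 0.36 (quartiles 0.21 and 0.64), so the quartile ranges did not overlap. At least 1.5-fold higher were 36 of the 39 and 13 of the 38, against 13.6% of all genes tested, a share not counted by GC content. Low minus high GC content gave a difference of medians of 1.04, and of 0.83 with the GC trend of all genes removed. Of the 20 genes with the largest difference, 19 lay at or below the median GC content, and of the 20 with the smallest, 2 did. RPL35, with a GC content of 57.2% and a difference of 1.46, was the exception among the first.

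Other genes showed the same direction on a smaller scale. Among 9686 other genes with a coding sequence, those at or below the same GC content had a median difference of 0.13 and those above it of -0.15. Spearman's rho between GC content and difference was -0.70 over the 77 ribosomal protein genes and -0.32 over the other genes, as a description across genes of the same 2 libraries. In JUN WT against control it was -0.073 over the 77 genes and -0.38 over the other genes, where the medians were 0.36 at or below and -0.052 above that GC content. In the JNKi table the rho of the 77 genes lay between -0.064 and 0.060. With the median difference of all tested genes of like coding GC content subtracted, the family's median in JUN AA was 0.86, with 75 genes higher and 2 lower, and in JUN WT -0.19, with 26 higher and 51 lower. The part of GC content in library preparation was not tested.

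**Figure D3:**
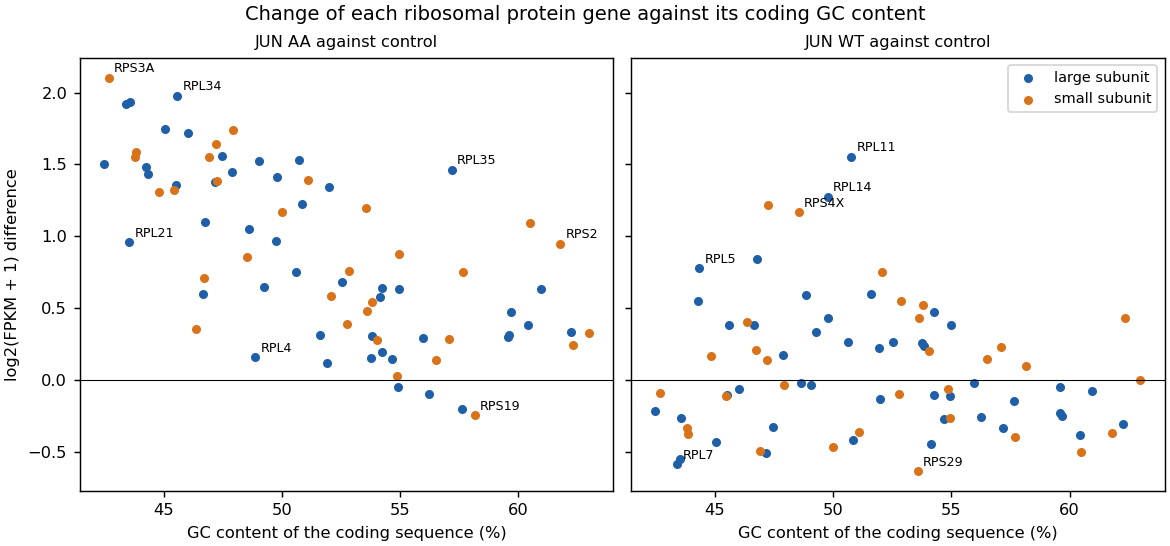
Log2(FPKM + 1) difference of each ribosomal protein gene (points, coloured by subunit) against the GC content of its coding sequence in percent, for JUN AA against control on the left and JUN WT against control on the right. On the left the points fall from RPS3A at 2.1 to RPS19 at -0.25 as GC content grows, with RPL35 above the others of its composition, and on the right there is no such slope.

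Length of the annotated canonical transcript gave a smaller contrast than GC content in JUN AA and a larger one in JUN WT. Such transcripts can far exceed the coding sequence, as in RPL37 with 7573 and 291 bases, and the lengths behind the FPKM are not given. In JUN AA the 39 genes with a canonical transcript of up to 785 bases had a median difference of 0.96 and the 38 longer ones 0.66, and a split at a coding length of 450 bases gave 1.21 and 0.64. In JUN WT against control the medians were -0.062 for the short and 0.16 for the long transcripts, with a difference of -0.22 beside 0.048 between low and high GC content. The split at 450 coding bases turned the former to 0.031. In iCAFs+JNKi against iCAFs the medians by length were -0.31 and -0.30. The subunits differed little: large and small stood at 0.72 and 0.86 in JUN AA, -0.055 and 0.0024 in JUN WT, -0.087 and -0.048 in iCAFs against MRC5, and -0.29 and -0.34 in iCAFs+JNKi against iCAFs. Genes with and without a TOP-like start had medians of 0.73 and 0.64 in JUN AA, -0.035 and 0.30 in JUN WT, and -0.29 and -0.31 in iCAFs+JNKi against iCAFs, over 46 and 16 genes.

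Conditioned medium left the family close to untreated MRC5. The median difference of iCAFs from MRC5 was -0.083, beside -0.061 for all 11780 genes tested, and 61 of 77 genes were lower, against 59.4% of all genes. Centred on the median gene, 48 were lower and 29 higher. At least 1.5-fold lower were 0 of 77, against 6.30%, and at least 1.5-fold higher 1, against 4.66%, which was RPL21 (0.98, from 9.43 to 19.6 FPKM). Summed with the row of its pseudogene RPL21P28, RPL21 differed by -0.017. RPS29 at 346 FPKM in MRC5 and 390 in iCAFs (0.17) and RPLP2 at 758 and 825 FPKM (0.12) were the next highest. RPS15 at 725 and 589 FPKM (-0.30), RPL29 at 952 and 805 FPKM (-0.24) and RPL12 at 897 and 765 FPKM (-0.23) were the lowest. The interquartile range of the 77 differences, from -0.14 to -0.020, was narrower than that of all genes, from -0.24 to 0.11.

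With JNKi nearly every gene was lower by a small amount. In iCAFs+JNKi against iCAFs 75 of 77 were lower, against 62.6% of all genes, with a median of -0.30 (a fold of 0.812) beside -0.099 for all genes. At least 1.5-fold lower were 4, against 7.49% of all genes, and at least 2-fold lower 2, against 1.97%, so few single genes passed a fold limit although nearly all lay on the same side. At least 1.5-fold higher was 1, RPL13A, against 5.17%. Rescaled to the same sum, 70 of 77 were lower with a median of -0.17, and the median of all genes was 0.014. Other genes with at least 100 FPKM had a median of -0.17 and other short transcripts one of -0.24. The ribosomal protein genes made up 25.6% of the difference in summed FPKM, which decreased by 33577 from iCAFs to iCAFs+JNKi.

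RPS29, a zinc-binding protein of the small subunit, stood at 346 FPKM in MRC5, 390 in iCAFs and 174 under JNKi, a difference of -1.16 from iCAFs. RPS28 stood at 676, 612 and 402 FPKM (-0.60) and RPS20 at 463, 464 and 306 FPKM (-0.60). These 3 and RPL21 were the 4 genes at least 1.5-fold lower. RPS6 at 979, 951 and 853 FPKM (-0.16), RPL5 at 626, 565 and 459 FPKM (-0.30), RPL11 at 892, 847 and 664 FPKM (-0.35) and RPL3 at 960, 912 and 718 FPKM (-0.34) were lower, as most of the family was. RPLP0, RPLP1 and RPLP2 differed by -0.14, -0.36 and -0.36, RPSA by -0.47, RPS3 by -0.58, RPS27A by -0.48, RPL41 by -0.15 and RPS4X by -0.15. RPL26 at 599 and 598 FPKM (-0.0024) and RPL36A at 212 and 224 FPKM (0.081) were level with iCAFs.

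Against untreated MRC5, the library that iCAFs were also set against, iCAFs+JNKi had a median difference of -0.39 beside -0.16 for all genes, with 76 of 77 lower, against 66.4% of all genes. At least 1.5-fold lower were 12, against 14.4%, and at least 1.5-fold higher 1, against 7.22%. The 12 became 3 after rescaling to the same sum and 2 when centred on the median gene, without a recount of all genes. As deposited, the 12 were RPL21 (-1.83), RPS29 (-0.98), RPS28 (-0.75), RPS21, RPS12, RPSA, RPL35, RPS3, RPL30, RPL38, RPS20 and RPS27A. RPL13A was the highest (1.74), followed by RPL36A (-0.0039) and RPS27 (-0.052). Rescaled to the same sum, 70 of 77 were lower with a median of -0.24. For 59 genes the levels were ordered MRC5, iCAFs, iCAFs+JNKi from high to low, and iCAFs+JNKi was the lowest library for 75. These orders were not counted over all genes, most of which were also lower in iCAFs+JNKi than in MRC5 (66.4%).

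RPL13A and RPL21 were the 2 genes whose values could not be read alone. RPL13A lies at chr19:49990767-49996314 and RPL21 at chr13:27825499-27830828 on GRCh37, both on the plus strand. In both tables the row of RPL13A is followed directly by that of RPL13AP5, and the row of RPL21 by that of RPL21P28. GENCODE places these pseudogenes on chromosomes 10 and 1, while the rows around them in the files belong to chromosomes 19 and 13. RPL13A stood at 194 FPKM in MRC5, 178 in iCAFs and 648 under JNKi, and RPL13AP5 at 2276, 2100 and 758 FPKM. The difference between iCAFs+JNKi and iCAFs was 1.86 for RPL13A, -1.47 for RPL13AP5 and -0.70 for their sum. A higher value in one row stood beside a lower one in the other, and the sum lay in the direction of the family. How the reads were divided between the rows was not tested.

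RPL21 held 1.24% of its sum with RPL21P28 in MRC5, 2.61% in iCAFs and 0.285% under JNKi. RPL21P28 stood at 751, 732 and 674 FPKM, and the difference of the sum between iCAFs+JNKi and iCAFs was -0.15, against -2.81 for the RPL21 row. In the JUN overexpression table RPL21 stood at 219, 149 and 426 FPKM and RPL21P28 at 775, 806 and 2956 FPKM, and their sum was 1.77 higher in JUN AA than in the control, among the larger differences of the family. RPL13A and RPL13AP5 summed to 4214, 4250 and 4350 FPKM in control, JUN WT and JUN AA, a difference of 0.046 in JUN AA. The other 28 pseudogene rows named after these genes summed to 42.3 to 59.5 FPKM per library, and the 3 readthrough rows to 21.1 to 105 FPKM. Processed copies without a row of their own may also share reads with these genes, and 45 of the 77 share exon bases with another annotated gene, mostly small nucleolar RNAs in their introns, so single values are uncertain to that extent.

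**Figure D4:**
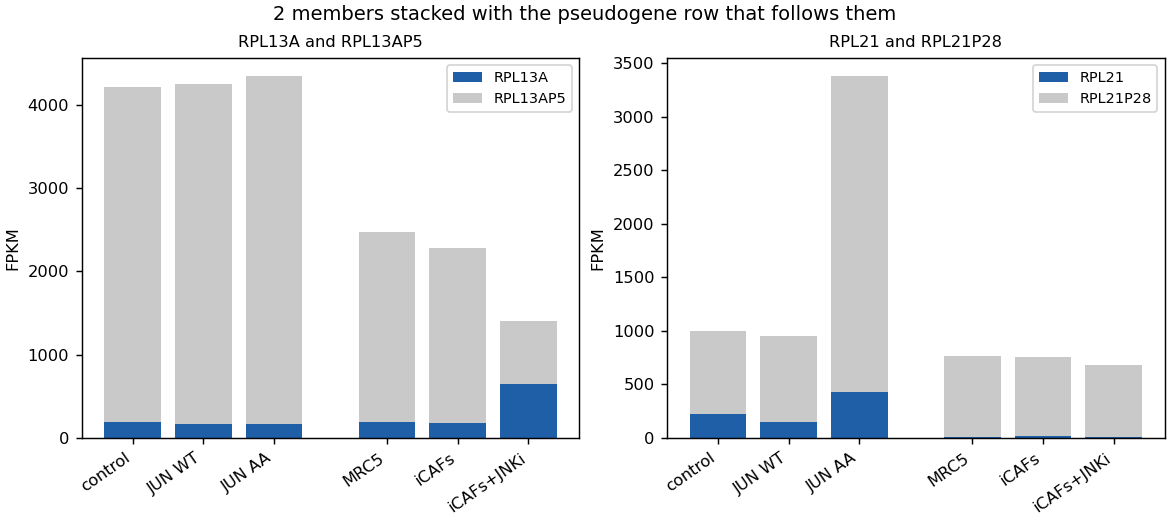
FPKM of RPL13A with RPL13AP5 (left) and RPL21 with RPL21P28 (right), stacked per library, with the libraries of the 2 tables set apart by a gap because the tables are not compared with each other. In iCAFs+JNKi the RPL13A part grows to 648 FPKM while the whole bar shrinks to 1406 FPKM, and RPL21 is a thin part of each bar of the JNKi table.

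Other genes of the translation machinery were read from lists given in the design. Of 18 TOP-mRNA and elongation genes, such as EEF1A1, which delivers aminoacyl-tRNA, 17 were higher in JUN AA than in the control, with a median of 0.40 and 5 at least 1.5-fold higher, where 48.6% and 13.6% of all genes were. EIF3E, an initiation factor subunit, stood at 107 FPKM in control cells, 48.3 with JUN WT and 294 with JUN AA (-1.13 and 1.45), and GNB2L1, the ribosome-bound scaffold RACK1, was the one gene below the control in JUN AA (-0.090). In JUN WT the list's median was 0.12, led by EEF1A1 at 827 FPKM in the control and 1550 in JUN WT (0.91). With JNKi 17 of 18 were lower than in iCAFs, against 62.6% of all genes, with a median of -0.22. None was at least 1.5-fold lower, against 7.49% of all genes. EEF1A1 was the lowest, from 2587 to 1851 FPKM (-0.48), and NAP1L1 the one higher gene (0.22).

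The 28 ribosome biogenesis genes, which make and process ribosomal RNA in the nucleolus, had another pattern. In JUN WT 25 of 28 were higher than in the control with a median of 0.56, and 12 were at least 1.5-fold higher, where 60.9% and 22.1% of all genes were, led by WDR12 at 2.39 and 5.99 FPKM (1.05), while UBTF, a factor of RNA polymerase I, was the lowest (-0.62). In JUN AA 14 were higher and 14 lower, against 48.6% of all genes higher, with a median of 0.014, from GNL3 (1.44) to TCOF1 (-0.76). With JNKi 27 of 28 were lower than in iCAFs, with a median of -0.48 and 12 at least 1.5-fold lower, where 62.6% and 7.49% of all genes were, and RRS1, a factor of large subunit assembly, stood lowest at 52.8 FPKM in MRC5, 40.2 in iCAFs and 18.5 under JNKi (-1.08). The medians of structural proteins and of assembly factors therefore had opposite orders in JUN WT and JUN AA, and the same sign with JNKi. The difference between these lists was not tested.

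Of the 18 mTOR and translation regulators, 17 passed the filter in the JUN overexpression table. EIF4EBP1, the repressor of cap-dependent initiation that mTOR inactivates, stood at 232 FPKM in control cells, 91.3 with JUN WT and 300 with JUN AA, a difference of -1.33 in JUN WT. RHEB, the activator of mTOR complex 1, was the highest in JUN WT at 15.8 and 36.3 FPKM (1.15), and EIF4E, the cap-binding protein, the highest in JUN AA at 5.78 and 14.1 FPKM (1.15), with RPTOR the lowest there (-0.85). MYC, an activator of ribosomal genes, stood at 21.0 FPKM in MRC5, 19.6 in iCAFs and 9.97 under JNKi (-0.91 against iCAFs), and RICTOR was the highest with JNKi (0.60). The list's medians were -0.13 in JUN WT, -0.17 in JUN AA, -0.082 in iCAFs against MRC5 and -0.14 with JNKi.

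**Figure D5:**
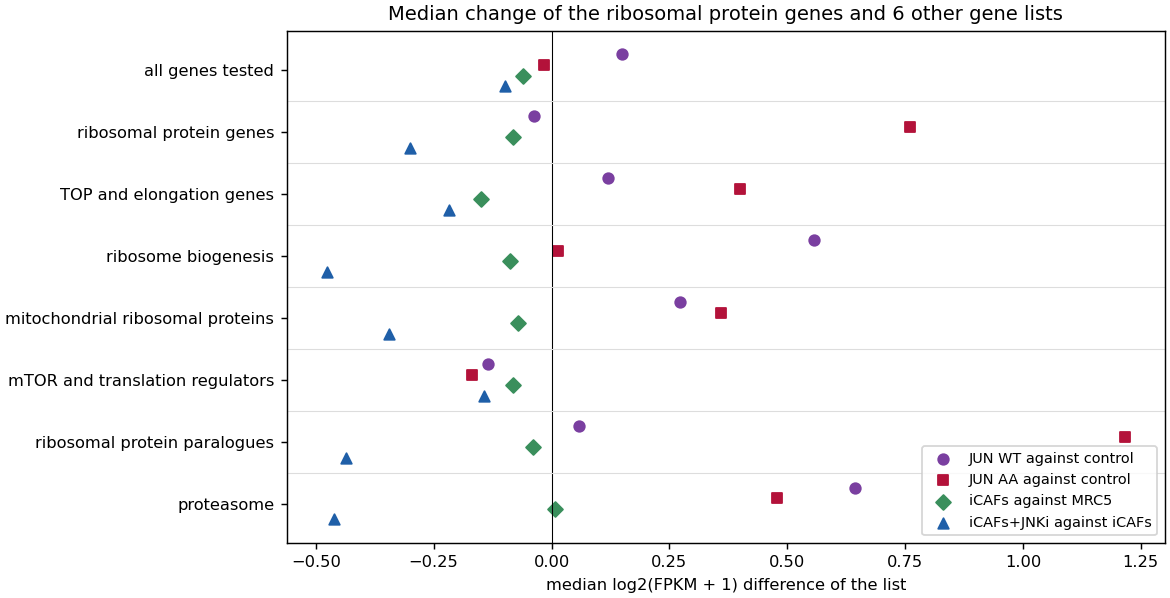
Median log2(FPKM + 1) difference (horizontal axis) of all genes tested, the ribosomal protein genes and 6 other lists, with one symbol for each of 4 comparisons. The ribosomal protein genes are far right only for JUN AA at 0.76, the ribosome biogenesis genes only for JUN WT at 0.56, and all lists lie left of 0 with JNKi.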

How the data were processed

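The authors extracted RNA with TRIzol, mapped reads to hg19 with HISAT2 2.1.0 and deposited FPKM per gene from StringTie 2.1.1. The annotation, strand setting and depth are not given in the sources used here, so no interval can be given. Each table has 25370 rows, and for the 2 repeated symbols the row with the higher mean was kept. Conditions came from the labels and each of the 6 columns matched 1 library.

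Differences of log2(FPKM + 1) were computed within a table in Python 3.11.15 with numpy 2.4.6 and pandas 2.3.3. Genes that averaged 1 FPKM or more over the 3 libraries were tested, that is, counted against folds of 1.5 and 2. With 1 library per condition no test between conditions was made. The steps were tested on simulated data. Positions, canonical transcripts and GC content came from GENCODE on GRCh37 (coding sequences for 94.7% and 93.2% of tested genes), sequences from RefSeq on GRCh38.p14. Each member's 300-base window runs from 250 bases before to 50 after the start. Members, lists and splits, coding GC content included, were chosen with earlier results of these data known.

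Named genes were the 3 highest and 3 lowest of each comparison and the 3 highest and lowest means of each table. Also named were a list of genes given in the design, most with known roles, and the largest difference each way of each other list. Genes named beyond this, such as the genes at least 1.5-fold lower with JNKi, were chosen after their values were seen. Alternatives were scaling each library to a sum of 1000000, a pseudocount of 0.1, centring on the median gene, means, other filters and other splits. Subtraction of the GC trend in 20 bins, the split by GC content, sums with pseudogene rows and rescaled all-gene medians were added after seeing the data. The values of 1 member are left out of the text.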

Additional observations from a re-analysis of the deposited data

How the results depend on the processing

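No paired analysis was possible because each condition has 1 library, and for the same reason no replicate could be left out. Limits for calling a value moved, 0.25 on the log2 scale and 1.5 times for counts, were set here, as no spread between replicates exists. Depth is unknown, so the error of single values cannot be given.

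Of 180 recomputed summary values of the ribosomal protein genes and their splits, 154 stayed within these limits, 21 moved, and 5 changed sign with a value of at least 0.1 on either side. The 154 include 14 sign changes between values under 0.1. Rescaling to the same sum took the family's median from 0.76 to 0.45 in JUN AA against control and from -0.65 to -0.36 in JUN WT against JUN AA. Without the genes that share exon bases the latter was -0.34, and the median in JUN WT against control went from -0.037 to 0.16. The count of 9 genes higher by at least 1.5-fold in JUN WT became 5 with the GC trend removed and 4 at a fold of 2. The 2 lower genes became 8 when centred on the median gene, 15 with the GC trend removed and 0 at a fold of 2. In JUN WT against JUN AA, rescaling gave 4 genes at least 1.5-fold higher in place of 0. In iCAFs against MRC5 the 1 higher gene became 0 at a fold of 2. In iCAFs+JNKi against iCAFs the 4 lower genes became 2 under rescaling, centring, GC trend removal or a fold of 2. Against MRC5 the 12 lower genes became 3 under rescaling, 2 when centred or with the GC trend removed, and 1 at a fold of 2. The shares of all genes were not recounted under rescaling, centring or GC trend removal.

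The difference of short minus long transcripts in JUN WT against control went from -0.22 to 0.031 with a split at a coding length of 450 bases, and from 0.30 to 0.57 with that split in JUN AA. In JUN WT against JUN AA it went from -0.69 to -0.39 with means. There, large minus small subunit went from -0.18 to 0.012 with means and to 0.099 with the GC trend removed, and low minus high GC content from -1.15 to -0.68 with means. In JUN WT against control low minus high GC content went from 0.048 to -0.28 with the GC trend removed. The median of all genes changed sign among genes of at least 100 FPKM, to -0.093 in JUN WT against control, 0.22 in JUN AA and -0.23 in JUN WT against JUN AA, and among transcripts of at most 1000 bases, to 0.37 and -0.26 in the last 2. The cause was not tested, other than that a fold of 2 is the stricter limit. Of 428 recomputed differences of single genes, 366 stayed within the limits and 25 changed sign, none of them of a gene at least 1.5-fold changed.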

Other observations

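The mitochondrial ribosomal proteins, which build the separate ribosome of the mitochondrion, are matched in number to the cytoplasmic ones, with 77 genes in the tables. In JUN AA 64 of 77 were higher than in the control with a median of 0.36, against 48.6% of all genes, and in JUN WT 56 of 77 with a median of 0.27, against 60.9%. MRPL1 led in JUN AA at 4.96 FPKM in the control and 16.5 in JUN AA (1.56), and MRPL37 in JUN WT at 49.9 and 111 FPKM (1.14). The lowest were MRPL45 in JUN AA (-0.62) and MRPL23 in JUN WT (-0.80). With JNKi 73 of 77 were lower than in iCAFs with a median of -0.35, where 62.6% of all genes were lower, and 6 were at least 1.5-fold lower, near the 7.49% of all genes, MRPS24 most at 85.0 and 40.5 FPKM (-1.05). MRPS6 was the highest with JNKi (0.13) and the lowest in iCAFs against MRC5 (-0.68).

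The 20 proteasome genes of the core particle and its ATPase ring, abundant housekeeping genes without a ribosomal role, were mostly higher in both constructs. In JUN WT 18 of 20 were higher, against 60.9% of all genes, with a median of 0.64, from PSMC6 (-0.16) to PSMA5 at 11.7 and 31.4 FPKM (1.35). In JUN AA 17 of 20 were higher, against 48.6%, with a median of 0.48, from PSMC4 (-0.38) to PSMA2 at 55.9 and 171 FPKM (1.59). With JNKi 20 of 20 were lower than in iCAFs, against 62.6% of all genes, with a median of -0.46. At least 1.5-fold lower were 3, against 7.49% of all genes. The list ran from PSMA3 (-0.21) to PSMB7 at 134 and 79.6 FPKM (-0.75). In the same comparison the 77 ribosomal protein genes had a median of -0.30, so a lower level with JNKi was shared with this unrelated list. Of 8 paralogues of ribosomal protein genes 6 passed the filter, and all 6 were higher in JUN AA with a median of 1.22. RPL22L1, the paralogue of RPL22, stood at 14.8 FPKM in control cells, 32.4 with JUN WT and 80.5 with JUN AA (1.08 and 2.37), and at 30.8, 26.9 and 11.6 FPKM in MRC5, iCAFs and iCAFs+JNKi (-1.15 with JNKi).

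Replication-dependent histone genes, another family of short transcripts, summed to 1084 FPKM in control cells, 1052 with JUN WT and 891 with JUN AA, and to 366, 242 and 246 FPKM in MRC5, iCAFs and iCAFs+JNKi. Small nucleolar and nuclear RNA rows, many of them in introns of ribosomal protein genes, summed to 123, 177 and 236 FPKM and to 545, 472 and 363 FPKM. The tables have no rows of mitochondrially encoded mRNAs under the usual symbols.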
